A study of Mus musculus with 12 samples.

Results

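Chl1, the gene of the L1-family cell adhesion molecule CHL1 (close homolog of L1), and its 3 contactin neighbours on mouse chromosome 6, Cntn3, Cntn6 and Cntn4, were followed through 6 IgG control libraries of a chromatin immunoprecipitation series. The genes were chosen on values of these same libraries: Chl1 as a gene of high read density, meaning reads per kb of the annotated transcript interval, and the contactin genes as its neighbours, with the fraction of bases covered taken alongside. They are 4 of 23870 named genes and have 6 of the 33062 intervals common to the libraries, 3 of which are nested intervals of Cntn4. Because the choice rests on density and covered fraction, both are given below as descriptions, without a test. The name "dense gene" held for the reads of Chl1 but not for its covered bases, which stood close to those of the contactin genes in each library.

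The cells were mpkCCD clone 11, a transformed line of mouse renal collecting duct principal cells, at passages 6 to 10. They were kept in medium with 2% dialyzed serum and then without serum until harvest at 24 h, with either 0.1 nM dDAVP, an analog of vasopressin selective for the V2 receptor, or its vehicle present from beginning to end. Each of the 4 groups of the series has 3 samples. The 3 IgG libraries with dDAVP and the 3 with vehicle are described here, and the RNA polymerase II libraries were not analysed here. All 6 come from 1 clonal line, and nothing in the labels says whether the experiments were separate cultures, so the p-values below rest on a spread that could be technical. Nonspecific IgG recovers background DNA, so a density here counts reads of such DNA. It measures neither expression nor polymerase and does not check the labelled cell type. Nor is it an amount of DNA, since repeated copies of a fragment cannot be told from separate molecules.

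L1-family proteins and contactins are cell surface members of the immunoglobulin superfamily. CHL1 spans the membrane and binds ankyrin and ezrin inside the cell, whereas contactins are tethered to the outer face by a glycosylphosphatidylinositol anchor and signal through partners such as contactin-associated proteins and receptor tyrosine phosphatases. Both families are best known for the guidance of axons, the formation of synapses and neuronal migration. The 4 genes are studied mainly in the nervous system, not in the collecting duct.

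The libraries held 10588927 to 19748658 reads summed over all intervals, with a median of 92 to 155 reads per interval. Reads carry no molecular identifiers, so repeated copies of 1 fragment cannot be told from separate molecules. Experiments 1 and 2 differed by little more than sampling noise in both groups (chi-square over degrees of freedom 1.02 with dDAVP, p = 0.0395, and 1.01 with vehicle, p = 0.141; 5.04 or more for every other pair within a group). Those experiments 1 and 2 were merged into 1 sample in each group, so n = 2 for either treatment. dDAVP experiment 3 stood apart: the density of the genes in its most GC-rich decile was 9.40 times that in its most GC-poor decile, against 0.455 to 0.830 in the other libraries. All 4 genes are GC-poor, so its value is given apart from the others where a result could rest on it.

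On the mm10 build, Cntn3 lies at chr6:102163306-102464667 on the minus strand and Chl1 at chr6:103510876-103733035 on the plus strand. Cntn6 lies at chr6:104493044-104863405 and the longest Cntn4 interval at chr6:105677745-106699305, both on the plus strand. The intervals run from transcript start to end, introns included, over 301 kb, 222 kb, 370 kb and 1022 kb. GC content was 38.3% in Cntn3, 37.8% in Chl1, 36.6% in Cntn6 and 37.8% in Cntn4, against 45.7% in the median gene. Between 27.5% (Chl1) and 34.2% (Cntn6) of their bases are masked as repeats in the reference, against 20.9% in the median gene.

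Chl1 has 27 exons, and the deposited values give 1 number for the whole interval, so the position of a read inside it cannot be seen. A few stretches of the reference (GRCm38.p6, whose chromosomes have mm10 coordinates) show what the interval is made of. The first is the 300-base stretch whose GC content is nearest to that of the gene (37.7%), in intron 1 at chr6:103513276-103513575, plus strand, 5′ to 3′, and each of its 251 windows of 50 bases occurs once in the reference.

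Chl1 typical stretch: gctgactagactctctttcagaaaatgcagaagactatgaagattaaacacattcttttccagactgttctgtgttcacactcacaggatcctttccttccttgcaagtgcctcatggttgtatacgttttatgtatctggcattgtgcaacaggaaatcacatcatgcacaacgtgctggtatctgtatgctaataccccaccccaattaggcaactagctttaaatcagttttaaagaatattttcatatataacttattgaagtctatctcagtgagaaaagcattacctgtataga

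The second is the stretch of highest GC content (66.7%), in intron 2 at chr6:103581076-103581375, plus strand, wholly masked as a repeat, with a median of 381 exact copies per window.

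Chl1 most GC-rich stretch: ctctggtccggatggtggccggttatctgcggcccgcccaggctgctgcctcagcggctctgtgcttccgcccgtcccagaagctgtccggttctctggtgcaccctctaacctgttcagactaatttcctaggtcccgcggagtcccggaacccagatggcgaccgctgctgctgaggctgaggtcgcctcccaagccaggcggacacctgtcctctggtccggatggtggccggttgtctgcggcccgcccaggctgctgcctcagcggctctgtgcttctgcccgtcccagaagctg

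The third is the most repeated 50-base window, a dinucleotide repeat in intron 1 at chr6:103525237-103525286, plus strand. It has 211325 exact matches in the reference on either strand, where overlapping matches within a repeat run are each counted.

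Chl1 most repeated window: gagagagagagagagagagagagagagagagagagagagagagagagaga

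The same dinucleotide repeat, read on one strand or the other, was the most repeated window of all 4 genes. The share of windows found once was 91.0% in Chl1, 91.2% in Cntn3, 92.7% in Cntn6 and 93.1% in Cntn4. Windows with at least 100 copies made up 6.81% of Chl1, 5.21% of Cntn3, 3.30% of Cntn6 and 4.12% of Cntn4, and the longest run of them was 3140 bases in Chl1, 2228 in Cntn3, 775 in Cntn6 and 2092 in Cntn4. By these measures of exact copies Chl1 had the largest repeated share of the 4, though most windows of each gene were found once. By bases masked as repeats its share was the smallest, 27.5% against 30.2% to 34.2% in the contactin genes.

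Chl1 collected 43983, 41116 and 7621 reads in dDAVP experiments 1, 2 and 3 and 37145, 34535 and 81328 in the vehicle experiments. Relative to the median gene, its reads per kb were 25.1-, 24.6- and 3.68-fold in those dDAVP libraries and 26.0-, 25.5- and 34.6-fold in those with vehicle. dDAVP experiment 3 was the low library and vehicle experiment 3 the high one, and the other 4 lay close together. Averaging experiments 1 and 2 first, the dDAVP mean was 14.3 ± 15.0 and the vehicle mean 30.2 ± 6.3 (SD, n = 2 each), in multiples of the median gene. Among 24158 genes, Chl1 ranked 4, 5 and 1051 by density in the dDAVP libraries and 5, 6 and 2 in the vehicle libraries. Its reads were 0.0908% of all gene reads in dDAVP experiment 3 and 0.489% to 0.625% in the other 5.

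The contactin genes lay near the median gene in 5 of the libraries and well below it in dDAVP experiment 3. Cntn3 stood at 1.17, 1.17 and 0.336 times the median gene in the dDAVP experiments and at 1.25, 1.20 and 1.42 in the vehicle experiments. Cntn6 stood at 0.993, 1.03 and 0.246 with dDAVP and at 1.14, 1.1 and 1.40 with vehicle. Cntn4 stood at 1.20, 1.17 and 0.296 with dDAVP and at 1.20, 1.21 and 1.52 with vehicle. All 3 were low in dDAVP experiment 3 and highest in vehicle experiment 3, the libraries in which Chl1 was also low and high. Group means were 0.752 ± 0.589 and 1.33 ± 0.14 for Cntn3, 0.628 ± 0.540 and 1.26 ± 0.20 for Cntn6, and 0.740 ± 0.629 and 1.36 ± 0.22 for Cntn4 (dDAVP and vehicle, SD, n = 2 each). Cntn6 was the lowest of the 3 in each library, whereas Cntn3 and Cntn4 changed places between libraries. The group means of the 3 differed by less than those SDs.

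**Figure D1:**
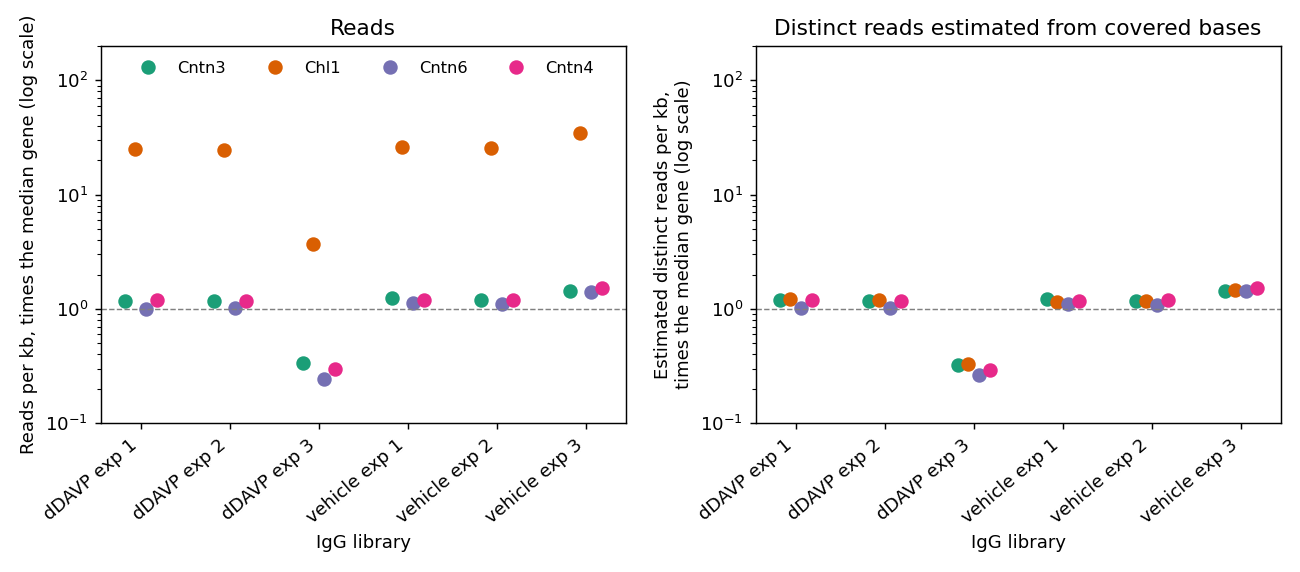
Density of the 4 genes in each IgG library, in reads per kb over the median gene on a log axis (left) and in distinct reads per kb estimated from covered bases, over the median gene (right). Points are single libraries and the dashed line is the median gene. Chl1 lies at 3.68 to 34.6 on the left and among the contactin genes, at 0.333 to 1.46, on the right.

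The covered bases of Chl1 did not follow its reads. At least 1 read covered 36.3%, 34.1% and 7.47% of its bases in the dDAVP experiments and 23.3%, 23.1% and 51.6% in the vehicle experiments. Cntn3, with far fewer reads per kb, was covered over 35.7%, 33.6% and 7.21% with dDAVP and over 24.7%, 23% and 50.8% with vehicle. Cntn6 was covered over 5.96% (dDAVP experiment 3) to 50.9% (vehicle experiment 3), and Cntn4 over 6.65% to 53.5% in the same libraries. An even spread of the Chl1 reads, taken as 50 bases each, would have covered 82.0% of the interval in dDAVP experiment 3 and at least 99.96% in each of the other 5. In dDAVP experiment 3 all 7621 reads of Chl1 lay on 16605 bases, and in vehicle experiment 3 all 81328 reads lay on 114729.

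The number of distinct reads that would give the observed covered fraction was estimated for each gene. For Chl1 it was 2004, 1851 and 345 with dDAVP and 1181, 1165 and 3228 with vehicle, and the reads of Chl1 divided by it came to 21.95, 22.2 and 22.1 with dDAVP and to 31.5, 29.6 and 25.2 with vehicle. The estimate assumes even placement, so where reads pile on the same bases it misses distinct reads, and the ratio is not a number of copies per fragment. In the contactin genes the ratio was 1.05 to 1.07 in dDAVP experiment 1, 1.07 in experiment 2 and 1.87 to 2.09 in experiment 3. With vehicle it was 1.42 to 1.43, 1.38 to 1.40 and 1.04 to 1.06 in experiments 1, 2 and 3. The level of the contactin genes thus differed between libraries, and the Chl1 ratio of a library is to be read against it. Over the 4838 genes of at least 50 kb the median ratio was 1.05 (vehicle experiment 3) to 2.02 (dDAVP experiment 3), and Chl1 had the highest ratio of them in each of the 6 libraries. The next gene was 2700054A10Rik at 4.22 to 4.32 in 4 libraries, and Sfi1 at 8.71 and 4.47 in dDAVP experiment 3 and vehicle experiment 3.

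**Figure D2:**
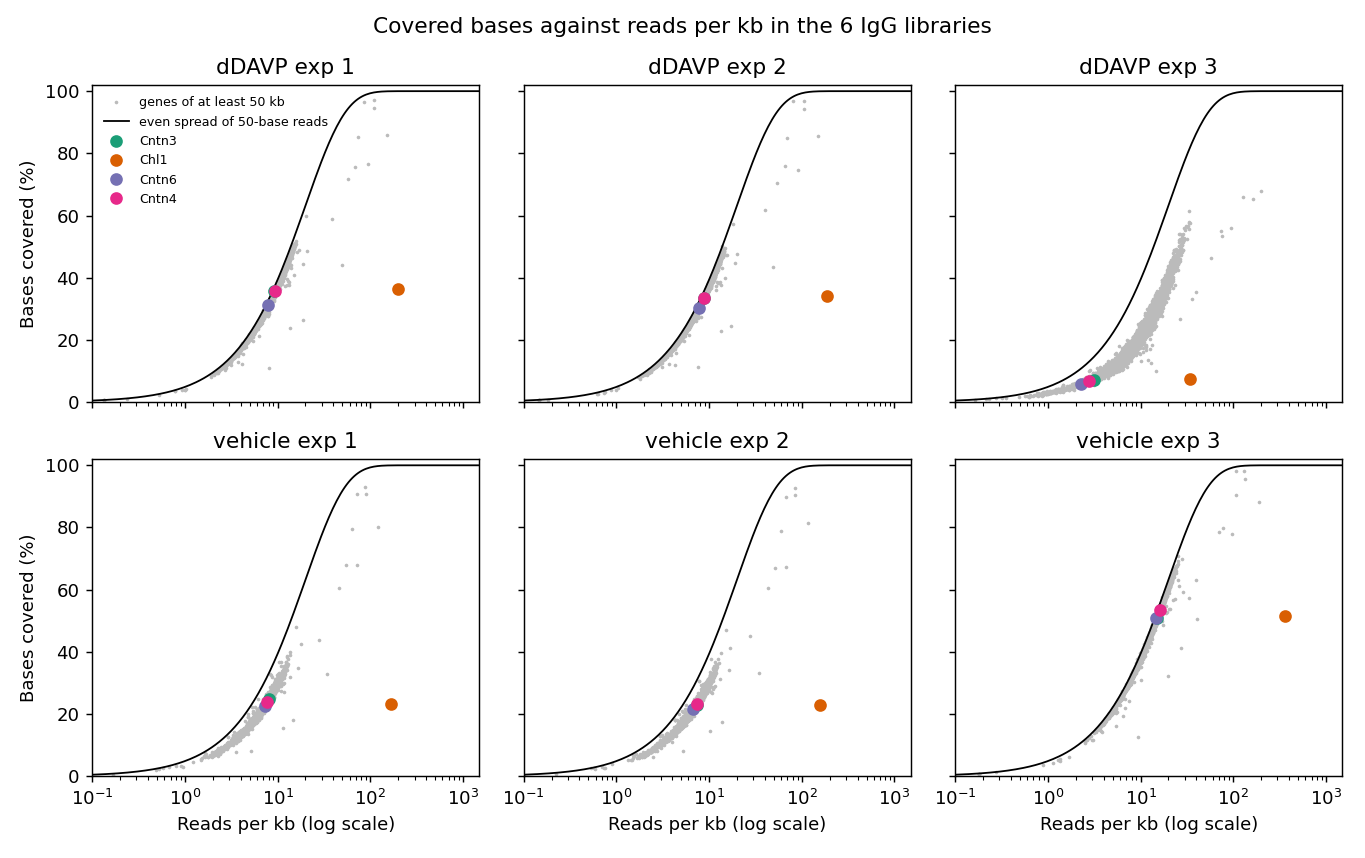
Percentage of bases covered by at least 1 read against reads per kb (log axis), one panel per IgG library, for the 4 genes (colours) and all genes of at least 50 kb (grey). The line is the coverage that an even spread of 50-base reads would give. Chl1 lies far to the right of the grey points at the covered height of the contactin genes, 7.47% in dDAVP experiment 3 and 51.6% in vehicle experiment 3.

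In distinct reads per kb, Chl1 stood at 1.23, 1.19 and 0.333 times the median gene in the dDAVP experiments and at 1.16, 1.19 and 1.46 in the vehicle experiments. Its rank by this measure was between 4558 (vehicle experiment 3) and 20270 (dDAVP experiment 3) of 24158. Against the mean of the 3 contactin genes, Chl1 held 22.3, 21.98 and 12.6 times their reads per kb in the dDAVP experiments and 21.7, 21.8 and 23.9 times in the vehicle experiments. In distinct reads the same ratio was 1.07, 1.06 and 1.14 with dDAVP and 0.984, 1.02 and 0.997 with vehicle. The averaged ratios were 17.4 ± 6.8 and 22.8 ± 1.5 in reads and 1.102 ± 0.049 and 0.9999 ± 0.0046 in distinct reads (dDAVP and vehicle, SD, n = 2 each).

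The reads of Chl1 beyond the contactin level numbered 42015, 39245 and 7015 with dDAVP and 35434, 32950 and 77929 with vehicle. They were 92.0% of its reads in dDAVP experiment 3 and 95.4% to 95.8% in the other libraries. If the rest of Chl1 were covered as a contactin gene was, a wholly covered stretch of -8.77 kb to 16.6 kb would give its covered bases. That range is over the libraries and the choice of contactin gene as reference, out of 222 kb. A negative length means that Chl1 was covered less than that contactin gene. The surplus reads thus lay on few enough bases to leave the covered fraction of Chl1 at the contactin level. Which bases these are cannot be read from 1 count per interval. Chl1 also had the largest share of 50-base windows with many copies, though the smallest share of masked bases. The part of such windows in the surplus was not tested.

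Densities moved with base composition in dDAVP experiment 3, so each gene was set against the median of the 1208 genes in its own class of GC content. Chl1 then stood at 24.2, 23.9 and 11.5 times its class with dDAVP and at 23.6, 23.5 and 26.2 times with vehicle. The contactin genes stood at 0.923 (Cntn4, dDAVP experiment 3) to 1.16 (Cntn4, dDAVP experiment 1) times their class in all 6 libraries. The drop of the contactin genes in dDAVP experiment 3 was thus shared by genes of their GC content, whereas Chl1 remained below its own level in the other libraries there.

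The nested intervals of Cntn4 allowed this gene to be split into 3 stretches. The 5′ stretch (chr6:105677745-106118764, 441 kb) had 1.12 to 1.52 times the median gene in the libraries other than dDAVP experiment 3, and 0.298 there. The middle stretch (chr6:106118765-106674270, 556 kb) had 1.20 to 1.52 and 0.295. The 3′ stretch (chr6:106674271-106699305, 25.04 kb, 61 to 375 reads) had 1.105 to 1.42 and 0.261. The 3 stretches of Cntn4 thus had similar densities within each library, including the low one, and its reads were not gathered at one end.

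The other genes between and next to the 4 carried no surplus of reads. Gm9871, beyond Cntn3 and 1.71 Mb from Chl1, averaged 1.24 times the median gene over the 6 libraries. Gm19757, 1.75 Mb to the other side between Cntn6 and Cntn4, averaged 1.29, and Il5ra, the alpha chain of the interleukin 5 receptor beyond Cntn4, averaged 0.980. The microRNA gene Mir6373, of 0.102 kb, had 0 to 3 reads per library, too few to give a level. Of the 87 genes within 10 Mb of Chl1, 0 exceeded 2 times the median gene in each of the 6 libraries, and their median was 1.01. The 65 of at least 10 kb averaged 0.739 to 1.39. The highest averages in the window were those of Mir1957a (7.46, 0 to 3 reads), Mir7041 (3.42, 0 to 4 reads) and Mir7042 (2.86, 0 to 3 reads), which rest on single reads. The lowest were those of Gt(ROSA)26Sor, the noncoding gene of a locus much used for transgenes (0.659), Jagn1, which encodes an endoplasmic reticulum protein (0.670), and Gpr27, an orphan receptor gene of 72.8% GC (0.677, 2 to 19 reads). Among genes of at least 1 kb, Chl1 was a single high gene in its neighbourhood in 5 libraries. Of the microRNA genes, Mir1957a reached 23.4 in vehicle experiment 2 on 3 reads. Mir7041 stood at 4.12 in dDAVP experiment 3 on 2 reads, above Chl1 there. In dDAVP experiment 3 the short gene 1700123L14Rik (1.70 kb, 81 reads), named after its value was seen, stood at 5.10 and above Chl1 at 3.68, and further genes of the window exceeded 2 times the median gene, among them Prrt3 (2.71), Tada3 (2.68) and Ttll3 (2.49).

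**Figure D3:**
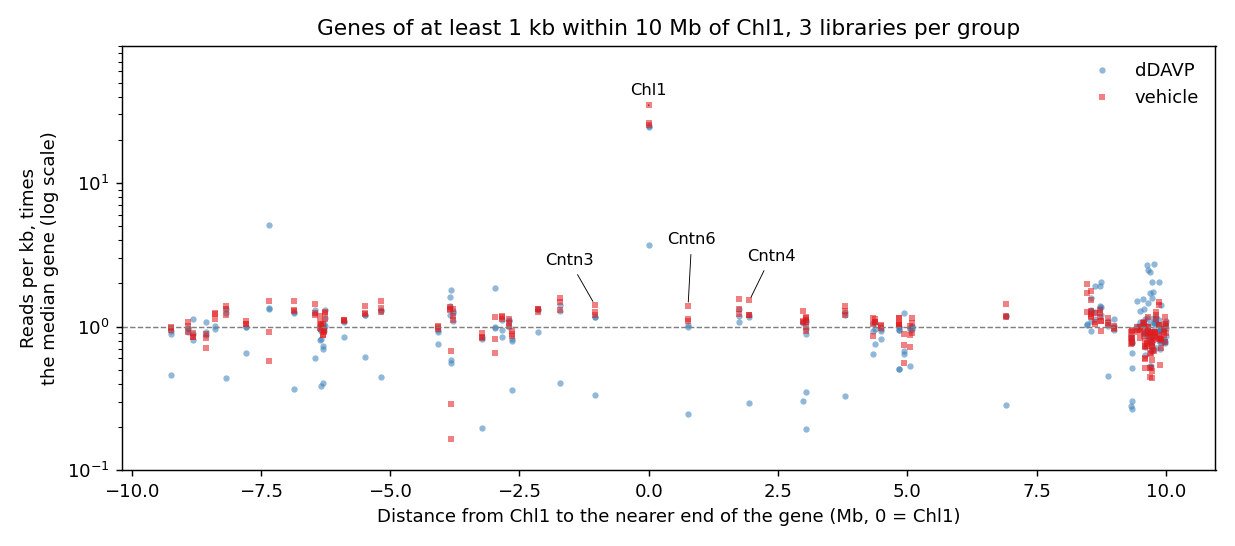
Density over the median gene (log axis) of genes of at least 1 kb within 10 Mb of Chl1, against the distance in Mb from the Chl1 interval, with 1 point per library (dDAVP blue circles, vehicle red squares). Chl1 stands above the other genes at 24.6 to 34.6 in 5 libraries. In dDAVP experiment 3 it is at 3.68, below 1700123L14Rik at 5.10, while Cntn3, Cntn6 and Cntn4 lie near the dashed line of the median gene in the other 5 and below it there.

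The remaining genes of both families, on other chromosomes, had no such surplus, and the highest ratio of reads to distinct reads among them was 2.30. L1cam, the X-linked founder of the L1 family, averaged 0.364 ± 0.112 (dDAVP) and 0.279 ± 0.019 (vehicle) times the median gene. Nrcam and Nfasc, the L1-family members of nodes of Ranvier, stood at 1.13 ± 0.88 and 1.64 ± 0.55 with dDAVP and at 2.01 ± 0.19 and 1.13 ± 0.10 with vehicle. Among the contactins, Cntn1 stood at 1.01 ± 0.68 and 1.62 ± 0.09, Cntn2 at 1.71 ± 1.04 and 0.817 ± 0.145, and Cntn5 at 0.781 ± 0.568 and 1.39 ± 0.22 (dDAVP and vehicle, SD, n = 2 each). The wide dDAVP spreads follow experiment 3, in which the GC-poor Nrcam, Cntn1 and Cntn5 were low and the GC-richer Nfasc and Cntn2 high.

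All 23 genes of a list of binding partners, processing enzymes and anchors had an interval. Their densities averaged 0.607 to 1.68 times the median gene, with a median of 1.08, and their ratio of reads to distinct reads reached 2.80. The densest were Ank2, an ankyrin that links membrane proteins to the spectrin skeleton (1.68), and Cntnap5c, a contactin-associated protein gene (1.32). The least dense were Itga1 and Itga2, which encode collagen-binding integrin alpha chains (0.607 and 0.687).

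In mean density over the 6 libraries Chl1 ranked 9 at 23.2. Just above it came Duxf3 (27.9), a gene of a repeated array whose reads cannot be assigned with certainty, Angel1 (26.4) and Mir6236 (23.8), and just below it Sfi1 (19.4), Lrrc74a (17.6) and Zdhhc22 (15.6). Of these, Angel1 was covered over 78.3% to 99.9% of its bases, Lrrc74a over 75.3% to 99.4%, Zdhhc22 over 87.9% to 99.7%, Sfi1 over 67.8% to 88.2%, Duxf3 over 90.2% to 100% and Mir6236, a microRNA gene of 0.123 kb, over 52.9% to 90.2%, against 7.47% to 51.6% for Chl1. Chl1 had the lowest covered share of the 7 in each library, close to that of Mir6236 in vehicle experiment 3 (51.6% and 52.9%). Their reads per kb were not alike in every library: in dDAVP experiment 3 the other genes stood at 21.1 to 78.8 times the median gene and Chl1 at 3.68.

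Some genes with no surplus varied over the libraries much as Chl1 did. They were picked for that likeness, so it is a description and not a test. After each gene of at least 50 kb was centred on its own mean log2 density, the nearest of 4838 to Chl1 by Euclidean distance over the 6 libraries were 3 overlapping intervals without a symbol at chr6:129972082-130380808 and within it (0.157, 0.158 and 0.209), Itgb8, an integrin beta chain gene (0.206), and Msr1, a scavenger receptor gene (0.232). Their densities were 0.807 to 1.93 times the median gene outside dDAVP experiment 3 and 0.139 to 0.207 in it. Cntn6 was at rank 82 (0.635), Cntn4 at 127 (0.728) and Cntn3 at 309 (0.921). The 6 points come from 4 distinct samples, and centred Chl1 was at -2.39 in dDAVP experiment 3 against 0.35 to 0.84 in the others.

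The comparison of dDAVP with vehicle asked whether the reads of background DNA differed with the hormone analog. No interval passed an adjusted p of 0.05 in edgeR's quasi-likelihood test (0 of 30912, 0%), and 236 (0.763%) had an unadjusted p under 0.05, all of them higher with dDAVP. How one-sided this was depended on the fit. With an offset for GC content 184 were higher and 85 lower, still mostly higher. With a replicate block, a term for the experiment number, the direction turned, with 22 higher and 188 lower. DESeq2 also called 0, and 1117 (3.61%) had an unadjusted p under 0.05, 1106 higher (3.58%) and 11 lower (0.0356%). None of the 4 genes was called. The log2 ratio of dDAVP to vehicle was -1.05 ± 0.98 for Chl1 (SE, 95% interval -3.47 to 1.37), -0.79 ± 0.63 for Cntn3 (-2.35 to 0.77), -0.98 ± 0.69 for Cntn6 (-2.69 to 0.74) and -0.85 ± 0.73 for Cntn4 (-2.65 to 0.95). The edgeR adjusted p was 0.619 for each.

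The dDAVP densities of all 4 genes lay below every vehicle density, by narrow margins: the highest dDAVP and lowest vehicle values were 25.1 and 25.5 for Chl1, 1.17 and 1.20 for Cntn3, 1.03 and 1.1 for Cntn6, and 1.201 and 1.202 for Cntn4. Over all genes, 15.9% showed that order. All 4 ratios were below 0, as were 49.4% of 22433 genes tested, and their median of -0.91 stood beside 0.01 for all genes. The 4 genes share a low GC content and a chromosome, so these 4 are not separate pieces of evidence. Without dDAVP experiment 3 the ratios were -0.25 ± 0.31 for Chl1, -0.15 for Cntn3, -0.29 for Cntn6 and -0.17 for Cntn4 (50.3% of genes below 0), with a lone dDAVP sample assumed to vary as the vehicle samples do. With each library's trend on GC content taken out, they were -0.44 ± 0.28 for Chl1 (95% interval -1.1 to 0.22, edgeR adjusted p = 0.960), -0.02 for Cntn3, -0.05 for Cntn6 and -0.06 for Cntn4. That trend uses the GC content of whole intervals, so it does not allow for the composition of the unknown bases that hold most Chl1 reads.

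**Figure D4:**
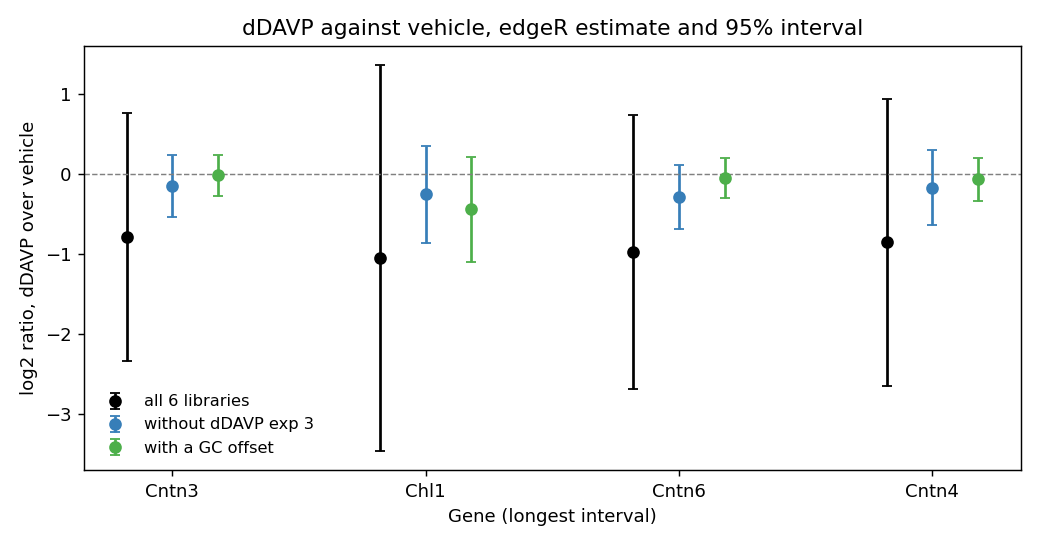
Log2 ratio of dDAVP to vehicle for the longest interval of each gene, with edgeR's estimate (points) and 95% interval (bars), from all 6 libraries, without dDAVP experiment 3, and with a GC offset per library. All 12 intervals include 0, and the estimates of the contactin genes move from -0.79 to -0.98 with all libraries to between -0.02 and -0.06 with the GC offset.

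Related genes showed the same absence of calls. Of the 6 other family genes, 3 had a ratio above 0 and 3 below, with 0 called and a median of -0.13. Cntn2 had the highest at 1.07 ± 0.51 and Cntn5 the lowest at -0.81 ± 0.66 (SE), each with an edgeR adjusted p of 0.619. Of the 23 partner genes, 5 were above 0 and 18 below, with 0 called and a median of -0.38, from -1.06 for Sema3a, a repulsive axon guidance cue, to 1.11 for Cntnap1, a contactin-associated protein gene. Without dDAVP experiment 3, 16 of the 23 were below 0, beside 50.3% of all genes, and the median of the 23 was -0.11. Of the 81 genes within 10 Mb of Chl1 that could be tested, 33 were above 0 and 48 below, with 0 called and a median of -0.17. Over all genes 49.4% were below 0. Without that library, 51 genes of the window were below 0, beside 50.3% of all genes, and the median of the window was -0.03.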

How the data were processed

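IgG control DNA from mpkCCD cells was cross-linked with 1.11% formaldehyde, sheared to about 300 bp, selected at 200 to 400 bp and sequenced as 50-bp reads, which BWA placed on mm10, per the labels' protocols. SAMtools and bedtools appear in the submitters' processing notes without versions. Handling of duplicate reads and of reads mapping to many places is not given in the sources used here. The deposited count gives, for a RefSeq transcript taken with its introns and on both strands, how many reads overlap it, and the deposited fraction is the share of its bases with a read, per the file headers. The deposited covered bases and lengths (other values) were used for the same purpose. An interval missing from vehicle experiment 2 was left out.

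Symbols matched 32763 of 33062 intervals (99.1%) through RefSeq and GENCODE tables. Density used the longest interval of each gene over the median gene. Distinct reads were estimated as -length/50 times the natural log of 1 minus the covered fraction, which assumes even placement. Copies of 50-base windows were counted in the whole reference on both strands, alternate loci included, and overlapping matches were each counted. Libraries agreeing with a chi-square over degrees of freedom under 1.1, over genes with at least 40 reads, were summed (their densities averaged). Counts were tested in edgeR 4.0.16 (R 4.3.3) by its quasi-likelihood test (two-sided, TMM factors, filterByExpr), and Benjamini-Hochberg adjustment ran over all 30912 intervals at 0.05. The smallest two-sided exact permutation p with 2 samples per group is 0.333, so no single value was tested that way. DESeq2 1.42.0, other scalings, filters, a replicate block, a GC offset and left-out libraries were alternatives. Descriptions used Python 3.11.15, numpy 2.4.6 and pandas 2.3.3. The edgeR fit and the distinct-read estimate were tested on simulated data. Overlapping genes share reads.

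The members, lists and tests were chosen with earlier results of these data known. Genes were named by rule: the 4 genes, those between and next to them, the 3 highest and lowest within 10 Mb, the families, the partner list (2 highest and 2 lowest), the 5 nearest patterns, and the 3 genes on either side in rank. In the lists, Cntn2, Cntn5, Sema3a and Cntnap1 were singled out for their ratios and 2700054A10Rik for its reads per distinct read, after their values were seen.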

Additional observations from a re-analysis of the deposited data

How the results depend on the processing

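Of 126 alternative values, 122 stayed on their side of the threshold with the same sign, or within 1 SD, and 4 moved, all vehicle densities. Many could hardly move, so the 122 do not measure stability. Leaving out experiment 1 or 2 kept its near-identical partner. The mean over all intervals was the main value for Chl1, Cntn3 and Cntn6, and the dDAVP SDs were wide. In distinct reads, vehicle Chl1 went from 30.2 ± 6.3 to 1.31 ± 0.20 times the median gene, and dDAVP Chl1 from 14.3 to 0.771, a change within its SD of 15.0. Against their GC class, vehicle Cntn3 came to 1.1, Cntn4 to 1.13 and Cntn6 to 1.01. Leaving out single libraries gave Chl1 densities of 14.1 to 24.9 with dDAVP and 25.7 to 30.3 with vehicle, and log2 ratios from -1.06 to -0.25, the last without dDAVP experiment 3. No setting made a call among all intervals, although edgeR's count at an unadjusted 0.05 ranged from 1 without vehicle experiment 3 to 1201 with 6 separate libraries, and its direction turned with the replicate block (22 higher, 188 lower). Library totals without TMM factors moved the median log2 ratio of all intervals from 0.01 to 0.24 and that of Chl1 to -0.94. Same-numbered libraries of the groups did not deviate together (correlations of their deviations -0.30, -0.31 and -0.51). Experiments 1 and 2 were alike in each group, so these values mostly set experiment 3 against them. They cannot decide whether the samples were paired. With the replicate block the Chl1 ratio was -1.62 and those of Cntn3, Cntn6 and Cntn4 were -1.06, -1.31 and -1.17 (edgeR adjusted p = 0.912), with 0 calls. With 6 separate libraries the block gave -0.99 for Chl1. The interval counts cannot place reads within Chl1, and n = 2 per group leaves wide intervals on the log2 ratios.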
